A study of Drosophila melanogaster with 3 samples.

Results

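Insensitive, the product of the Drosophila melanogaster gene insv, was mapped by chromatin immunoprecipitation and sequencing (ChIP-seq), and the regions described here are those on chromosome 4, the small dot chromosome. They were taken by chromosome name alone, as every dm6 region on chromosome 4 of the list that was called on the pooled replicates, and they numbered 248 of the 30000 regions in that list. The same chromosome held 104, 364 and 441 of the 30000 regions in the lists of replicates 1, 2 and 3, and 1 region of the thresholded list, which is the top of the pooled ranking. The pooled list and the replicate lists mix peaks with background regions by design, so that presence in them is not by itself evidence of binding. A member is therefore a listed region and not an established peak.

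The material was whole embryos of pooled sex, 0 to 24 h old, of a single transgenic line that stably expresses Insensitive with GFP at its C terminus, and the precipitation used an antibody to GFP on chromatin sonicated to a size range of 200 to 800. The labels number 3 biological replicates, all in 1 group, and no untagged or mutant samples were analysed here, so conditions could not be compared. The promoter that drives the fusion, whether the endogenous insv gene was intact, and whether the replicates were separate embryo collections are stated by none of the sources used, and p-values measure only the spread between these 3 samples. Whole embryos hold many cell types, and binding in few cells cannot be told apart from weak binding in many.

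Chromosome 4 is known for a mixture of heterochromatin and active genes. Most of it carries HP1 and methylated histone H3 lysine 9, transposon remnants such as INE-1 and 1360 lie between and inside its genes, and its genes are nonetheless expressed, with the help of the chromosome-specific protein POF. Insensitive is a co-repressor of Notch pathway targets that binds DNA through a BEN domain, for which the palindrome CCAATTGG is known.

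The sequences that carry the main observations are given first, each read from the + strand of chromosome 4 in dm6. The strongest region and the runner-up are shown as 121 bases around their centres. Neither stretch holds CCAATTGG, and neither has capitals. The first lies upstream of zfh2, which encodes a zinc-finger homeodomain transcription factor, at chr4:497812-497932, and the second upstream of fuss, which encodes a Ski/Sno family protein, at chr4:980499-980619.
zfh2 region: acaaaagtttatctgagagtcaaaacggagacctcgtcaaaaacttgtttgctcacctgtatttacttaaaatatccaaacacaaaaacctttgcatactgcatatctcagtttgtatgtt
fuss region: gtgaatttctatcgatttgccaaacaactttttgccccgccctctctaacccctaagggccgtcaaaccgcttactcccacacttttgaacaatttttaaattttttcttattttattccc

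The next stretches are the places where a member region holds CCAATTGG, in capitals. The site near ND-49 (chr4:570538-570567) lies in 2 overlapping members, 31 and 168 bp from their centres. The other stretch (chr4:425004-425067) is intergenic with lgs as the nearest protein-coding start, and it holds the palindrome at 2 positions, 79 and 103 bp from the centre of its member.
ND-49 site: acaacgagtttCCAATTGGacaaatataaa
lgs sites: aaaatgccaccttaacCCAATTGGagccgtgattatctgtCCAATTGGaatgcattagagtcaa

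The last set shows TATCGATA, the element recognised by the factor DREF, in capitals inside INE-1 copies that members overlap. It is shown because these copies carry nearly the same letters around the element at distant places on the chromosome. The stretches lie at chr4:332433-332462, chr4:402951-402980, chr4:941283-941312, chr4:811107-811136 and chr4:165352-165381, and each is named by the nearest protein-coding start.
Rnf11 copy: tttttctgttaTATCGATAgatatatggca
dati copy: tttttctgggaTATCGATAgatattgcgtt
mGluR copy: tttttctgggaTATCGATAgatattggaga
Sox102F copy: tttttcagggaTATCGATAgatattggtga
CG31997 copy: attttcttggaTATCGATAgatattggtgg

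The number of regions on chromosome 4 differed more between replicates than on any other arm. Replicate 1 had 78.1 regions per Mb of known bases (exact Poisson 95% interval 63.8 to 94.7, which like every interval here covers counting error only). Replicate 2 had 273.5 per Mb (246.1 to 303.0) and replicate 3 had 331.3 per Mb (301.1 to 363.7). Replicates 2 and 3 thus held 3.5 and 4.24 times as many chromosome 4 regions as replicate 1, and the interval of replicate 1 lay below both of the others, whose own intervals overlapped slightly. On the arms 2L, 2R, 3L, 3R and X together, called the other arms from here on, the replicates had 225.9, 224.0 and 223.4 regions per Mb. These arms include their pericentric ends, described below, which held few regions, so the rest of their length was denser than these values. A difference from the arms without those ends was not tested. These lists have a fixed length, so a density shows how 30000 calls were spread over the genome and not how much was bound.

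Over the 3 replicates the density was 227.6 ± 132.7 per Mb on chromosome 4 and 224.4 ± 1.33 per Mb on the other arms (SD, n = 3). The mean difference of 3.19 ± 134 per Mb was small against its spread (exact sign-flip permutation test over 3 replicates, two-sided, p = 1), and 0.25 is the smallest p that 3 replicates allow. Its direction depended on the replicates: it was 78.7 without replicate 1, -20.0 without replicate 2 and -49.2 without replicate 3. In the pooled list chromosome 4 had 186.3 regions per Mb (163.8 to 211.0), below the 224.9 of the other arms and close to the 178.7 of the X. These values hold for dm6. The pooled list on the dm3 assembly held 200 chromosome 4 regions beside 248 on dm6. The dm3 lists of replicates 1, 2 and 3 held 88, 356 and 427, and no dm3 density is given.

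Chromosome 4 did not resemble the pericentric ends of the other arms in this measure. Those ends, taken with approximate borders and 17.9 Mb long in all, held 21.1, 18.1 and 26.1 regions per Mb in replicates 1, 2 and 3 and 16.7 per Mb in the pooled list. Chromosome 4 was higher in 3 of 3 replicates, by 205.9 ± 131.3 per Mb on average (exact sign-flip permutation test, two-sided, p = 0.25, the smallest possible). This comparison of densities was chosen after the data were seen.

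**Figure D1:**
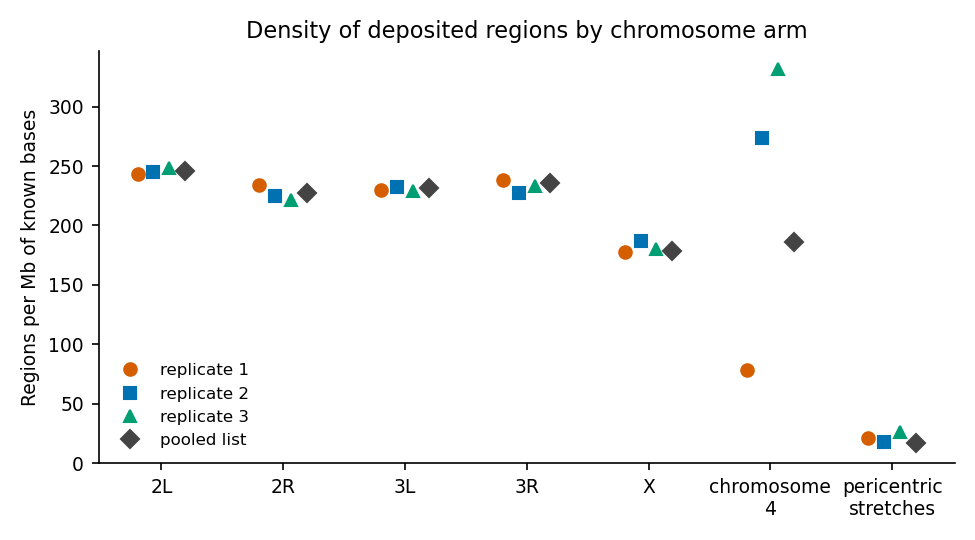
Regions per Mb of known bases (vertical axis) for each chromosome arm, chromosome 4 and the pericentric stretches of the arms, in the 3 replicate lists and the pooled list. On chromosome 4 the replicates spread from 78.1 to 331.3 per Mb, while on each other arm they lie close together.

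Along the chromosome the pooled regions were spread over most of its length. In windows of 100 kb the count was 3 in the first window, between 11 and 30 in each window from 100 to 1200 kb, 6 in the next and 0 in the short last window, of which 95.4% is annotated transposon sequence. The window with 30 regions, from 400 to 500 kb, had 13, 34 and 57 regions in replicates 1, 2 and 3. The low count of replicate 1 was therefore not a gap at a single place: it had fewer regions than replicates 2 and 3 in every window from 0 to 1300 kb. Neighbouring calls were few, and 232 of the 248 members were left when only the strongest of regions with centres within 500 bp was kept.

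The replicates also differed in how many chromosome 4 members they recovered. For replicate 1 this number is limited by its 104 regions on the chromosome. Replicates 2 and 3 covered a larger share of bases on chromosome 4 than on the other arms, given below, so an overlap is easier to meet there. Replicate 1 overlapped 67 of the 248 pooled members (27.0%), replicate 2 overlapped 158 (63.7%) and replicate 3 overlapped 161 (64.9%), by at least 1 bp. On the other arms the order was the reverse, with 64.7%, 57.7% and 54.3% of pooled regions overlapped in replicates 1, 2 and 3. The replicates entered the pool, so this recovery is not independent of it.

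All 3 replicate lists overlapped 27 of the 248 members (10.9%), beside 21.1% of all 30000 pooled regions. The low count of replicate 1 on chromosome 4 limits this share too. A further 103 members were overlapped in 2 lists, 99 in 1 and 19 in none. The pericentric stretches had 9.70% of their pooled regions in all 3 lists, a share close to that of chromosome 4. They differed from it in which list fell short, with 50.8%, 41.5% and 48.2% of regions found in replicates 1, 2 and 3.

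**Figure D2:**
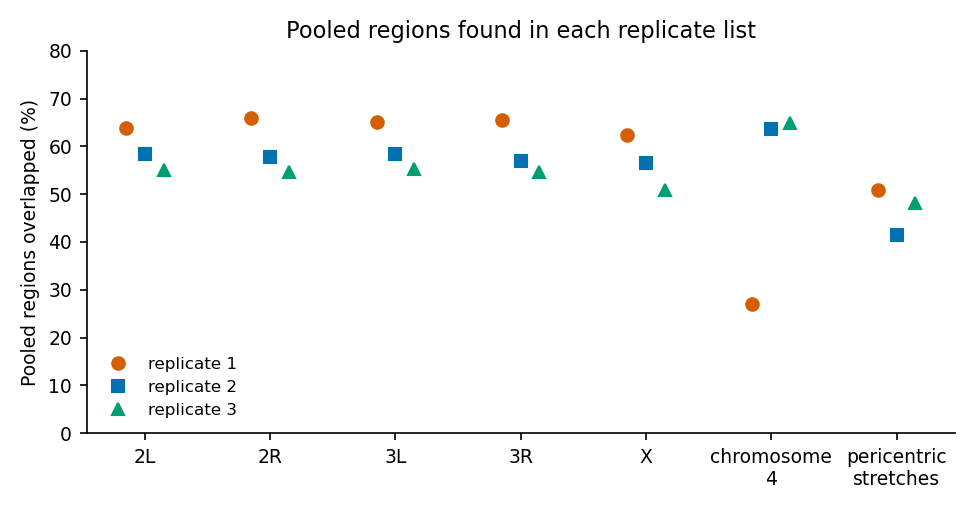
Share of pooled regions (vertical axis, percent) that at least 1 bp of a region in each replicate list overlapped, by arm. On chromosome 4 replicate 1 lies at 27.0% and replicates 2 and 3 at 63.7% and 64.9%, whereas replicate 1 is the highest of the 3 on every other arm and on the pericentric stretches.

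Set against each other without the pool, the replicate lists showed an imbalance on chromosome 4 that in part follows from their counts. Of the 104 regions of replicate 1, 41 (39.4%) met a region of replicate 2 and 52 (50%) met a region of replicate 3. In the opposite direction, 40 of the 364 regions of replicate 2 (11%) and 55 of the 441 regions of replicate 3 (12.5%) met a region of replicate 1. Replicates 2 and 3 shared 154 of 364 regions (42.3%) and 164 of 441 regions (37.2%), counted from each side. On the other arms these 6 shares ran from 36.2% to 40.04%. The regions of replicate 1 were thus shared with replicate 2 about as often as elsewhere and with replicate 3 more often. Replicate 2 covered 11.8% of chromosome 4 bases and 9.62% of the other arms, and replicate 3 covered 12.6% and 8.48%. An overlap of 1 bp is easier to meet where a list covers more bases, and this part was not tested. Most chromosome 4 regions of replicates 2 and 3 had no counterpart in replicate 1, whose 104 regions limit how large those shares can be. Chromosome 4 regions with no pooled counterpart made up 35 of 104 in replicate 1, 199 of 364 (54.7%) in replicate 2 and 268 of 441 (60.8%) in replicate 3, beside 35.5%, 40.9% and 46.5% on the other arms.

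Base composition moved with this difference between replicates. Chromosome 4 is 35.2% GC and the other arms are 42.2%. The median GC content of chromosome 4 regions was 42.0%, 36.3% and 35.5% in replicates 1, 2 and 3, and on the other arms it was 46.9%, 43.7% and 44.2%. Replicate 1 had the most GC-rich regions in both places.

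Among chromosome 4 regions under 36% GC, replicates 1, 2 and 3 had 21, 172 and 230, a ratio to replicate 1 of 8.19 for replicate 2 and 10.95 for replicate 3. From 36 to 40% GC they had 24, 101 and 106, and from 40 to 44% GC they had 21, 57 and 56. At 44% GC or more they had 38, 34 and 49. The excess in replicates 2 and 3 was therefore largest in the AT-rich regions, and in the most GC-rich range replicate 1 lay between them. On the other arms the counts under 36% GC were 1409, 3956 and 4319, ratios of 2.81 and 3.07, and at 44% or more they were 19837, 14196 and 14921. The tilt towards GC-rich regions in replicate 1 was thus present genome-wide, but at the same GC range the ratio was larger on chromosome 4. The recovery of pooled members in replicate 1 rose with GC content, from 13 of 81 (16.05%) under 36% through 17 of 76 (22.4%) and 16 of 45 (35.6%) to 21 of 46 (45.7%) at 44% or more. In the same ranges the other arms had 49.7%, 55.6%, 61.7% and 69.6%. The split by GC was chosen after the counts per replicate were seen, and the part of base composition in the result was not tested beyond these values.

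**Figure D3:**
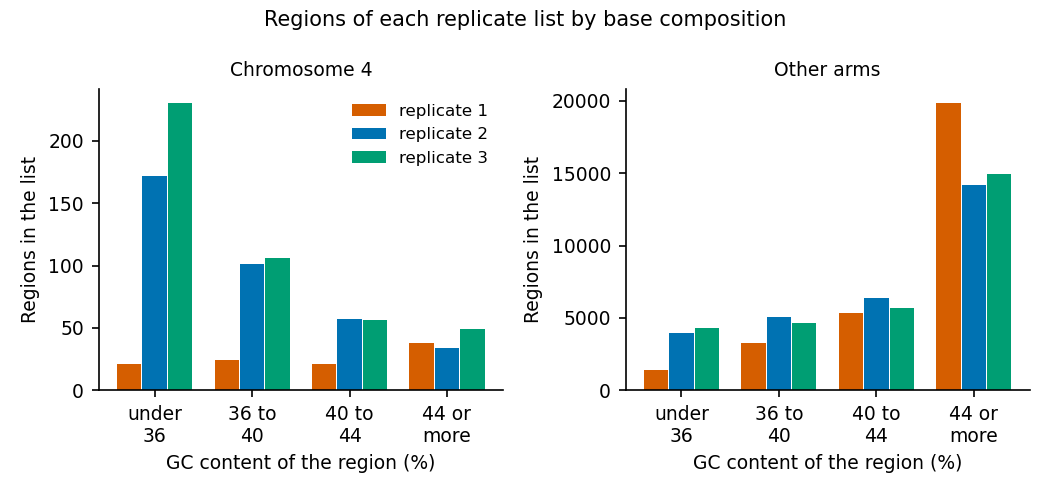
Number of regions (vertical axis) in 4 ranges of GC content in each replicate list, for chromosome 4 on the left and the other arms on the right, with separate scales. On chromosome 4 replicate 1 has 21 regions under 36% GC beside 172 and 230, and 38 at 44% or more beside 34 and 49.

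The signal of the regions, the value the authors' peak caller gave each of them, has no stated scale and was used only within a list. Pooled chromosome 4 signals ran from 19.4 to 116.2 with a median of 25.8, and those of the other arms had a median of 25.5 and a maximum of 1202. Chromosome 4 thus lacked the high tail. Its members lay in every block of 3000 pooled ranks, with 14 in the strongest block and between 21 and 35 in each of the others.

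Chromosome 4 had few regions at the very top of the replicate lists, taken as the same number of strongest regions as the thresholded list holds. Replicate 1 had 0 of 104 regions there (Wilson 95% upper limit 3.56%). Replicate 2 had 2 of 364 (0.549%, Wilson 95% interval 0.151 to 1.98%) and replicate 3 had 7 of 441 (1.59%, 0.771 to 3.24%). The other arms had 2.45%, 2.46% and 2.45%, inside the intervals of replicates 1 and 3 and above that of replicate 2. These arms make up nearly all of each list, so its length nearly fixes their share at any cut, and with it their small SD. The share was 0.712 ± 0.806% on chromosome 4 and 2.455 ± 0.0076% on the other arms (SD, n = 3), lower in 3 of 3 replicates, with a mean difference of -1.74 ± 0.805 percentage points (exact sign-flip permutation test, two-sided, p = 0.25, the smallest possible).

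The shortfall was limited to the very top. Among the strongest 3000 regions of each list chromosome 4 had 9.62%, 9.62% and 11.8% of its regions (10, 35 and 52), the other arms had 10%, 10% and 9.97%, and the mean difference turned to 0.348 percentage points (exact sign-flip permutation test, p = 1). The pooled list differed here, since 14 of 248 members (5.65%) were among its strongest 3000, beside 10.04% on the other arms. Against the pericentric stretches the difference at the very top was 0.552 percentage points (exact sign-flip permutation test, p = 0.5).

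The typical chromosome 4 region ranked somewhat higher than the typical region elsewhere, rank 1 being the strongest. The median rank on chromosome 4 was 12764.5, 13145 and 13603 in replicates 1, 2 and 3, and on the other arms 15005.5, 15023.5 and 15018. The medians of the other arms are nearly fixed by the length of the lists, which these arms almost fill. All 3 chromosome 4 medians were ahead of all 3 others (mean difference -1844.83 ± 414 ranks, SD, n = 3, exact sign-flip permutation test, two-sided, p = 0.25, the smallest possible). The pericentric stretches had median ranks of 19626, 19383 and 19101.5. In the pooled list the gap was smaller, with a median rank of 14616 on chromosome 4 and 15002.5 on the other arms.

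A single member, the region upstream of zfh2, was in the thresholded list. That was 1 of 248 (0.403%, Wilson 95% interval 0.071 to 2.25%), beside 2.44% of all 30000 pooled regions. It spans chr4:497664-498079, is intergenic and lies 3938 bp upstream of the zfh2 start. Its pooled signal was 116.2 at rank 385, its rank was 339 in replicate 2 with a signal of 48.4, and its rank was 586 in replicate 3 with a signal of 23.6. Replicate 1 had no region there, in a list whose lowest signal was 10.2. On the other arms, 2, 4 and 8 of the 731 thresholded peaks lacked a region in replicates 1, 2 and 3. The sole thresholded peak of chromosome 4 therefore rested on 2 of the 3 replicates. Its 36.3% GC content lay below the 38.3% median of chromosome 4 members.

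The next member fell just outside the threshold. The fuss region, chr4:980351-980766, had a pooled signal of 74.5 at rank 739, against 75.0 for the weakest thresholded peak. It lies 2070 bp upstream of the fuss start and partly in an INE-1 copy. Its signals were 14.9, 37.5 and 19.6 in replicates 1, 2 and 3, at ranks 11479, 503 and 1022. Like the zfh2 region, it was near the top in replicates 2 and 3 and not in replicate 1. Another fuss region, 4355 bp upstream of the start, had ranks of 2088, 2177 and 7441, so that its worst rank, shared with a weaker member that overlaps it, was the best worst rank of any chromosome 4 member.

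Several of the next strongest members lay in or near genes for transcription factors. The region 319 bp upstream of Sox102F, which encodes a Sox family factor, had signals of 31.6 and 28.1 in replicates 1 and 2, at ranks 932 and 834, and none in replicate 3. It was the strongest chromosome 4 region of replicate 1. A second Sox102F member, in an intron, had ranks of 11169, 18107 and 4161. The intergenic region 10895 bp upstream of dati, which encodes a zinc-finger protein, ranked 1026 in replicate 1, 16309 in replicate 2 and 5966 in replicate 3. The region 7003 bp upstream of fd102C, a forkhead gene, lies 358 bp from the start of a non-coding RNA gene. It was absent from replicate 1 and had ranks of 1399 and 13085 in replicates 2 and 3. The region in a coding exon of Mitf, which encodes a basic helix-loop-helix factor, was absent from replicate 1 and ranked 3935 and 621. No replicate led in all of these regions, and a place near the top of 1 list often went with a low rank, or no call, in another.

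Members whose nearest protein-coding start belonged to genes for signalling, RNA and metabolic proteins showed the same scatter. The region in an intron of CaMKII, a calcium- and calmodulin-dependent kinase, lies partly in an INE-1 copy and had ranks of 2916 and 17506 in replicates 2 and 3. The region close upstream of gw, which encodes the microRNA silencing protein GW182, had ranks of 11611 and 7470 there. Both were absent from replicate 1. The kinase gene Asator had 2 regions among the strongest 15, an intronic one with ranks of 2175 and 8069 in replicates 2 and 3, and an exonic one found in replicate 3 alone at rank 1494. The region 406 bp downstream of the start of ND-49, a subunit of mitochondrial complex I, was found in replicate 2 alone, at rank 2174. Regions with lgs, a Wingless pathway co-activator, as the nearest protein-coding start and in a coding exon of Gyf, a GYF-domain protein, were found in all 3 lists. The lgs region is intergenic, 16894 bp from the lgs start and 314 bp from the start of a non-coding RNA gene. The lgs region had ranks of 1388, 10758 and 15311 and the Gyf region had ranks of 9623, 3956 and 16634. Of the strongest 15, 7 were found in replicate 1, 14 in replicate 2 and 13 in replicate 3.

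**Figure D4:**
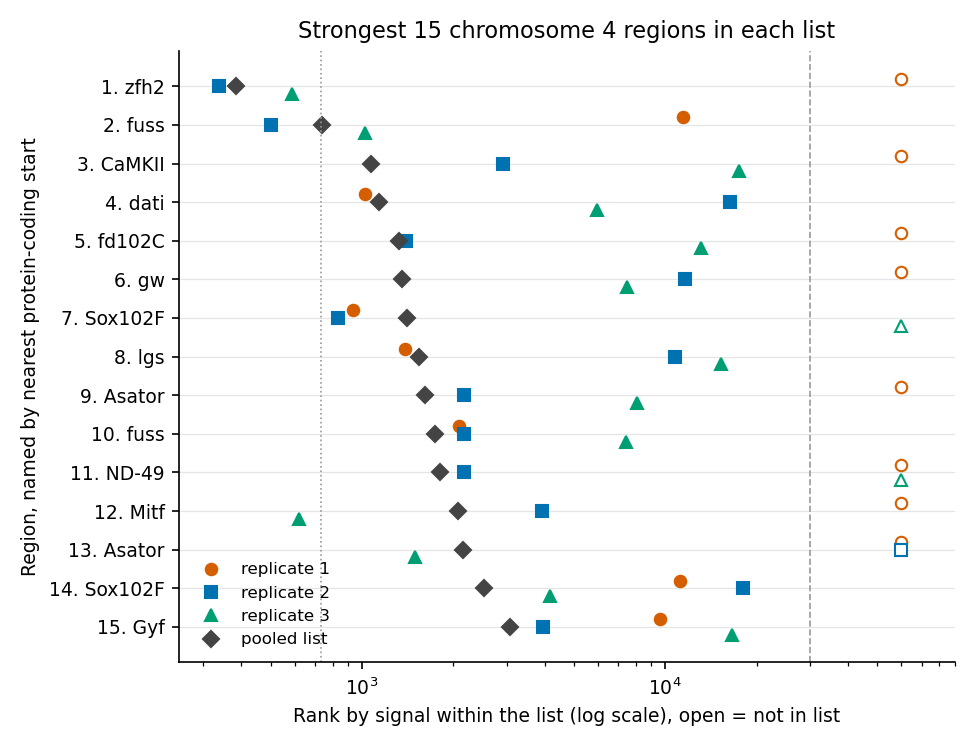
Rank by signal within each list (horizontal log axis) of the 15 strongest pooled regions of chromosome 4, named by the nearest protein-coding start. Filled symbols are ranks, open symbols at the right mark regions absent from a list, the dotted line is the length of the thresholded list and the dashed line is rank 30000. Only the zfh2 region lies left of the dotted line in the pooled list, and replicate 1 lacks 8 of the 15.

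The 27 members found in all 3 lists did not keep an order of signal between replicates. Spearman's rho of the signal across these members was -0.02 for replicate 1 with replicate 2, -0.20 for replicate 1 with replicate 3 and 0.003 for replicate 2 with replicate 3. The points share their libraries and some share a replicate region. Across the 6289 such regions of the other arms it was 0.47, 0.41 and 0.44. Across the 29 such regions of the pericentric stretches it was 0.25, 0.13 and 0.41. No interval is given for these values. None of the 27 ranked within the strongest 3000 in every replicate, whereas 912 of the 6289 (14.5%) did so. The median of the worst rank over replicates was 20198 for chromosome 4 and 16606 for the other arms. Besides those already named, the 27 included members in or near ey and toy, which encode Pax6 homologues, onecut and pho, which encode a homeodomain factor and a Polycomb-group DNA-binding protein, and Actbeta, which encodes an activin ligand.

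Some of the strongest chromosome 4 regions of a replicate were absent from the pooled list. In replicate 2 these were a region in a coding exon near Dyrk3, a kinase gene, at rank 865 and a region 42 bp upstream of a start of pan, the TCF factor of the Wingless pathway, at rank 1091. In replicate 3 a region near 4E-T, which encodes an eIF4E-binding protein, ranked 502, and it touched a transposon copy. The best region of replicate 1 without a pooled counterpart ranked 2727. The strongest region of replicate 3, at rank 375, lay in an intron of Sox102F, 1133 bp upstream of the nearest start, and had a pooled counterpart at rank 5278 with a signal of 35.4.

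Fewer members lay near gene starts than did regions of the other arms as a whole. Of the 248 members, 13 (5.24%, Wilson 95% interval 3.09 to 8.76%) had their centre within 500 bp of a protein-coding start, beside 19.6% of all 30000 pooled regions. Such bases make up 8.66% of chromosome 4 and 11.5% of the other arms, a ratio of regions to bases of 0.605 for the members and 1.72 for the other regions. In replicates 1, 2 and 3 the share near a start was 6.73%, 9.62% and 6.58% on chromosome 4 and 17.7%, 21.0% and 18.8% on the other arms, lower on chromosome 4 in 3 of 3 lists. Against the share of bases, the chromosome 4 ratio was 0.777, 1.11 and 0.760 in the replicates. The pericentric stretches also had few regions near a start, 8.70% in the pooled list and 5.84%, 8.36% and 9.01% in the replicates, which was below chromosome 4 in replicates 1 and 2. The share depended on how distance was measured, being 16.1% within 1000 bp and 11.3% from the nearest edge of a region. No value of the other arms is given at these measures, so neither share can be set against the 19.6%. All 248 members have their deposited summit at the middle of a region 416 bp long, so a distance is to a centre and not to a measured maximum.

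The 13 members near a start were those of gw, Sox102F and ND-49 above, a second, overlapping ND-49 region, another Asator region and regions at CG31999, CG32017, Gat, CG31997, ey, dati and bt. The closest was the Gat region, 12 bp downstream of a start of this GABA transporter gene, with a pooled rank of 10677 and ranks of 21926 and 11268 in replicates 1 and 2. The ey region, 29 bp upstream of a start, had a pooled rank of 16702 and ranks of 7302 and 29288 in replicates 1 and 2. These closest members thus ranked in the middle or lower part of the lists that held them, apart from the ey region in replicate 1. The dati starts had a pair of members, at pooled ranks 17513 and 27182, and the bt member, near the gene of a giant muscle kinase, was in no replicate list.

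Away from starts, 77 members (31.0%) had their centre in a coding exon, 109 (43.95%) in an intron, 43 (17.3%) between genes, 5 in a 3′ UTR and 1 in a 5′ UTR. Coding exons make up 19.3% of chromosome 4, and 24.7% of regions and 14.1% of bases on the other arms. The ratio of regions to bases in coding exons was 1.61 for the members and 1.65, 1.10 and 1.45 for chromosome 4 regions of replicates 1, 2 and 3, beside 1.76 for pooled regions of the other arms. Among the 14 members in the strongest 3000 it was 0.741, from 2 members. Introns held 41.5% of chromosome 4 bases, close to their share of members. Among the 14 members in the strongest 3000, 3 (21.4%) were near a start and 6 were between genes, and on the other arms 43.6% of the regions in the strongest 3000 were near a start.

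**Figure D5:**
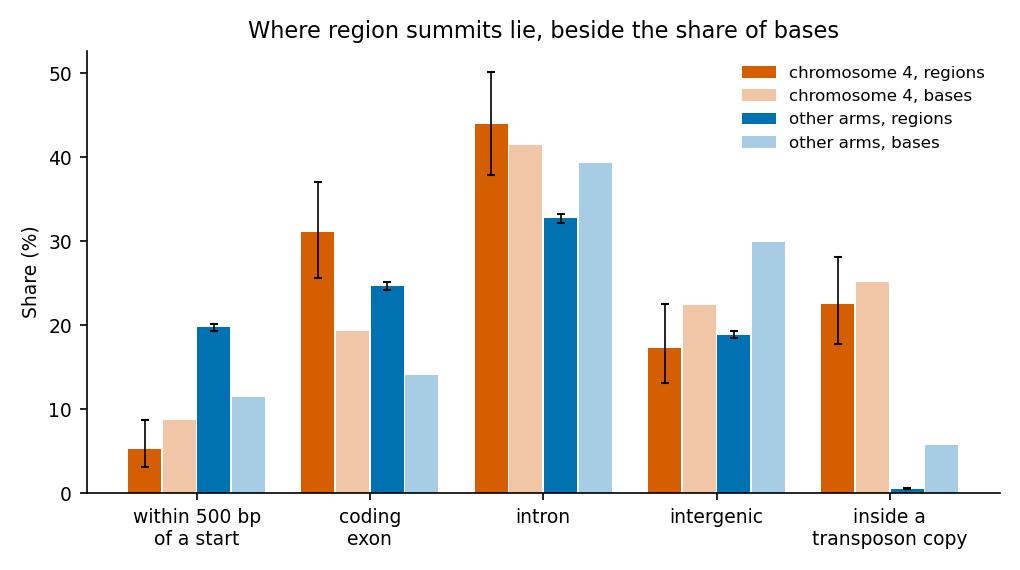
Share of pooled regions by the place of their centre (dark bars, with Wilson 95% intervals) and share of bases of the same kind (pale bars), for chromosome 4 and the other arms, in percent. Transposon copies are counted independently of the other places. Within 500 bp of a start the members lie at 5.24% beside 8.66% of bases, and inside transposon copies at 22.6% beside 25.1%.

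Transposon copies held a share of members close to their share of the chromosome. The centre of 56 members (22.6%, Wilson 95% interval 17.8 to 28.2%) lay inside an annotated copy, and copies make up 25.1% of chromosome 4, a ratio of 0.900. On the other arms 154 of 29752 regions (0.518%) had their centre in a copy, and copies make up 5.74% of the bases, a ratio of 0.090. The other arms include their pericentric ends, where regions were sparse and which held 44 of these 154 centres. That ratio thus mixes stretches with few calls and stretches with many. The shares in replicates 1, 2 and 3 were 21.2%, 19.8% and 17.5% on chromosome 4 and 0.425%, 0.587% and 0.768% on the other arms. The pericentric stretches were much nearer to chromosome 4, with 14.7% in the pooled list and 15.1%, 16.7% and 17.2% in the replicates. Chromosome 4 was far above the other arms as a whole in 3 of 3 lists, and in replicate 3 it was at nearly the same share as the pericentric stretches.

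INE-1, a short remnant element found in many copies on this chromosome, accounted for most of these members. It has 344 of the 566 copies on chromosome 4 and makes up 7.31% of the bases, and 38 of the 248 members (15.3%) were centred in it. On the other arms its 1891 copies make up 0.341% of bases and held 0.286% of centres. The longer 1360 element makes up 3.84% of chromosome 4 in 60 copies and held 2 centres (0.806%). INE-1 thus held a larger share of members than of bases, and 1360 a smaller one. Counting any contact, 64 members touched INE-1 and 7 touched 1360, of 86 that touched a copy.

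Members that touched a copy did not differ much in signal from those that did not. The median pooled signal was 25.9 for the 86 touching members and 25.6 for the 162 others. Replicates 1, 2 and 3 overlapped 25.6%, 68.6% and 60.5% of the touching members and 27.8%, 61.1% and 67.3% of the others. The recovery in replicate 1 was low in both groups. On the other arms replicate 1 overlapped 51.4% of the regions touching a copy and 64.9% of the rest. The part of transposon sequence in the recovery was not tested. At the top, 2 of the 86 and 12 of the 162 were in the strongest 3000.

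The palindrome CCAATTGG, searched on both strands, was about as rare in the members as in all regions. It lay within 100 bp of the centre of 2 of 248 members (0.806%, Wilson 95% interval 0.221 to 2.89%), beside 0.95% of all 30000 pooled regions. Those were the weaker of the ND-49 pair, at pooled rank 6677, and the lgs member of the printed sequence, at pooled rank 8083. Within that distance it was found in 0 of the 14 members in the strongest 3000 (Wilson 95% upper limit 21.5%) and in 145 of 2986 such regions (4.86%) on the other arms. Over the whole region the shares were close, with 1 of 14 members (7.14%), the stronger of the ND-49 pair, and 6.798% of such regions on the other arms. Chromosome 4 has 21 sites in all, 15.8 per Mb, beside 22.1 per Mb on the other arms.

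The other motifs searched were also infrequent. The Elba element CCAATAAG, bound by a complex of BEN-domain proteins related to Insensitive, was within 100 bp of 0 of 248 members, an upper limit of 1.53% (Wilson 95% interval), and of 0.743% of regions on the other arms. GAGAGAG was near 4 members (1.61%) and 2.40% of regions on the other arms, and GGTCACAC near 1 member (0.403%) and 0.508%. TATCGATA was the exception, near 6 members (2.42%, Wilson 95% interval 1.11 to 5.18%) and 0.420% of regions on the other arms. The pericentric stretches had a like share, 7 of 299 regions (2.34%), and over the whole region 4.35% beside 4.84% on chromosome 4. The element is itself more common on chromosome 4, with 133 sites or 99.9 per Mb beside 29.4 per Mb. Of those sites 72 (54.1%) lie in transposon copies, beside 9.93% on the other arms. In the whole length of the regions 12 members held it, 9 of them in an INE-1 copy, and in 6 of the 12 it was followed by GATAT, as in the 5 printed copies. A match of letters does not show that a factor bound there.

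Counted by gene, chromosome 4 had fewer starts with a region than other arms in the pooled list. Of its 80 protein-coding genes 28 (35%) had a pooled region centred within 1000 bp of a start, beside 57.5% of all 13945 protein-coding genes. The replicates disagreed on this, with 10 (12.5%), 51 (63.8%) and 44 (55%) genes in replicates 1, 2 and 3 and 56.2%, 57.3% and 56.8% on the other arms. Replicates 2 and 3 were thus at or near the share of the other arms and replicate 1, with fewer regions on the chromosome, was far below it. Chromosome 4 has 60.1 protein-coding genes per Mb and the other arms have 104.8.

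Genes for transcription and chromatin regulators had a pooled region near a start in 8 of 17 cases, and in 6, 13 and 12 cases in replicates 1, 2 and 3. The pooled share was 47.1%, beside 35% of all 80 genes of the chromosome and 57.5% of all 13945 protein-coding genes. All 80 genes had 12.5%, 63.8% and 55% in the replicates. Differences between gene lists were not tested. Sox102F led with a pooled signal of 54.3, followed by ey with 40.2 and toy with 29.7. The strongest calls near any ey start had signals of 17.2, 15.6 and 17.2 in replicates 1, 2 and 3, at ranks 7285, 4718 and 1644. These calls were not all the same region. The ey member with the pooled signal of 40.2 itself had ranks of 10066, 20198 and 1644 in replicates 1, 2 and 3. The strongest calls near a toy start had signals of 16.5, 8.33 and 10.4. All 3 replicates thus had a call at both Pax6 genes, and none of these calls was at the very top of its list. The gene ci, which encodes the transcription factor of the Hedgehog pathway, had no region within 1000 bp of a start in any list.

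Genes for signalling ligands, receptors and kinases had a pooled region near a start in 5 of 12 cases, and in 1, 8 and 6 cases in replicates 1, 2 and 3. The strongest were gw at 54.97, which is not itself a signalling gene although it stood in this list, Asator at 46.6 and Actbeta at 27.3. Actbeta was the gene of this list that replicate 1 held, with signals of 14.5, 14.6 and 11.6 in replicates 1, 2 and 3. Synaptic and neuronal genes had 3 of 11, and 1, 6 and 7 in the replicates. These were Gat at 28.6, the kainate receptor gene Ekar at 27.6 and dpr7, of an immunoglobulin family, at 21.7. Housekeeping genes had 3 of 13, and 1, 6 and 3 in the replicates. These were ND-49 at 49.5, Gyf at 41.8 and Arf4, a small GTPase gene, at 31.5. The 27 genes in none of the lists had 9 with a region (33.3%). The signalling, synaptic and housekeeping lists had 41.7%, 27.3% and 23.1%, beside 35% of all 80 genes. All 4 lists had fewer genes in replicate 1 than in replicates 2 and 3.

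Some chromosome 4 genes spanned many members. The gene body of zfh2 held 15 centres in 39065 bp, ey held 13 in 23485 bp and Sox102F held 13 in 33958 bp, which is 3.84, 5.54 and 3.83 per 10 kb. These genes are long, and the rate in each was above the 186.3 per Mb of the whole chromosome. They were picked for holding the most centres, so a high rate is in part built in. The longer genes bt, pan, unc-13 and Cadps had 1.15, 0.22, 0.90 and 0.98 per 10 kb. The zfh2 start itself had a weak pooled region, with a signal of 24.5 at rank 16695, although the strongest region of the chromosome lay upstream of it.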

How the data were processed

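ChIP-seq regions of 3 replicates of 1 group were analysed. Per the file names and text lists, the authors deposited peaks mixed with background for each replicate and for the pooled replicates, 30000 regions each, and a thresholded list. The deposited signal is a value that the authors' caller assigned, on a scale that is not stated. Aligner, caller, threshold and depth are stated by none of the sources used. The 732 thresholded peaks are the 732 strongest pooled regions. Members, lists and tests were chosen with earlier results of these data known. Replicates were compared by exact sign-flip permutation tests, checked on short made-up vectors. The overlap and thinning of regions were checked on simulated lists. Shares carry Wilson and densities exact Poisson 95% intervals. Regions count as shared at 1 bp or more. Sequence is RefSeq release 6, and genes and transposons are Ensembl release 115 (BDGP 6.54). Named genes are those nearest the 15 strongest members, the 3 strongest of each list and the 3 spanning most centres, and 2 of 53 list symbols matched through a synonym. Other genes near starts, in all 3 lists or leading a replicate were named after their values were seen. Software was matplotlib 3.10.9, pandas 2.3.3, SciPy 1.17.1, NumPy 2.4.6 and Python 3.11.15. Other distances, windows, overlaps, assemblies and comparison stretches were tried.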

Additional observations from a re-analysis of the deposited data

How the results depend on the processing

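For results tested over replicates, 18 of 22 alternatives kept the direction. The share of chromosome 4 regions at the very top of the lists, a difference of -1.74 percentage points, became 0.348 among the strongest 3000 and 0.552 against pericentric stretches, and ranged from -2.18 to -1.39 with a replicate left out. The median rank difference kept its direction and ranged from -2060 to -1647 with a replicate left out. The density difference ranged from -49.2 to 78.7 per Mb with a replicate left out. The share of members near a start, 5.24%, was 16.1% within 1000 bp and 11.3% from the nearest edge, with no value of the other arms at these measures. The share of members in all 3 lists, 10.9%, was 6.05% when 0.5 of the pooled region had to be overlapped. The number of thresholded members, 1, was 0 at a threshold that kept the stronger 50% of peaks. The causes were not tested. Lists hold 30000 regions and no depth, 3 replicates cannot give an exact permutation p under 0.25, and fixed-length lists show order and not amount. Each test paired chromosome 4 with the other arms within a replicate.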
